A study of Xenopus laevis with 64 samples.

Results

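The gene rest.S was followed across hindlimb and tail of Xenopus laevis tadpoles exposed to thyroid hormones or to inhibitors of the thyroid. It is the short-subgenome (S) copy of rest, and 1 pair of neighbouring spots, pair 361 of 406 on the array, measured it. The pair was found by its gene symbol, which was available for 237 pairs, and the gene itself was chosen by its fitted differences with T3, T4, MMI and PER in hindlimb at 24 h and between the tissues. Those differences are therefore given below as descriptions with no p. The remaining differences were not used in that choice, although some of them share arrays with it.

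REST is a zinc-finger protein that binds a DNA element near many neuronal genes and holds them silent outside the nervous system. In mammals it recruits corepressors such as SIN3A and RCOR1 (CoREST), which bring histone deacetylases and the demethylase KDM1A. Thyroid hormones drive metamorphosis in the frog: under them the hindlimb bud grows and differentiates and the tail is resorbed. T3 is the hormone that binds the nuclear receptors and T4 is its more abundant precursor. Propylthiouracil and methimazole block the thyroid peroxidase that makes the hormones, and perchlorate blocks the uptake of iodide into the gland.

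All tadpoles were at NF stage 54 when exposure began. The exposed groups received T3 (1.92 nM), T4 (10 nM), propylthiouracil (PTU, 20 mg/L), methimazole (MMI, 100 mg/L) or perchlorate (PER, 4 mg/L). T3 and T4 each had a control group of their own, while 1 control group for each tissue and time served all 3 inhibitors. Tails were taken at 48 h and hindlimbs at 24 h, with hindlimbs of the inhibitor experiment also at 96 h, which gave 20 groups and 64 arrays. The groups given T3 or T4 held 4 arrays each and all others held 3, each from the amplified RNA of a single animal. Per the labels the animals of an exposure were drawn from a small number of tanks. The sources used here do not say which animals shared one, and p-values therefore reflect only how animals differed.

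The deposited values are background-subtracted spot intensities on a linear scale, and 19.9 to 50.6% of the measured spots of an array lay below 0. The noise SD of an array, taken from its negative values, ran from 211 to 1930 (median 584), and a pair counted as above background where its mean intensity exceeded 2 noise SD. Exactly 1 array in each of the 7 sets that share tissue, time and experiment held only whole numbers, and whether the sets were brought to 1 scale is not given. Deposited intensities are therefore shown for each array as they stand, and the main differences were taken only after normalization, on the log2 scale. The brightness rank of rest.S within its own array is given beside them as a measure that needs no scaling, and it says nothing of the amount of rest.S transcript relative to other genes. In bulk tissue, fewer cells of a type and less RNA per cell cannot be told apart.

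The array held few probes for the defining cell types of either tissue. The muscle filament gene for desmin, des.1.S, was above background on 25 of 26 tail arrays, 6 of 12 hindlimb arrays at 96 h and 0 of 26 at 24 h. The other 2 muscle genes on the array did not follow it: tropomyosin (tpm4.S) was above background on 25, 8 and 18 of the same arrays, and the myogenic regulator gene myf5.L on 4, 7 and 17. The cartilage collagen gene col2a1.L was above background on 2, 2 and 0 of the same arrays, and the hindlimb regulator gene pitx1.L on 1, 0 and 1. Haemoglobin (hbd.S) was above background on 21 of 26 tail arrays, 7 of 12 hindlimb arrays at 96 h and 18 of 26 at 24 h. Of 11 markers of neurons and glia, the myelin gene mbp.S alone was on the array, and it was above background on 2 tail arrays and 0 hindlimb arrays.

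The signal of rest.S was found mainly in hindlimb at 24 h. The pair exceeded background on 2 of 26 tail arrays, 4 of 12 hindlimb arrays at 96 h and 22 of 26 hindlimb arrays at 24 h. In tail at 48 h its intensity ran from -511 to 1661 (median 201), with a median of 0.375 times the noise SD. In hindlimb at 96 h it ran from 277 to 10031 (median 1369), or 1.13 times the noise SD. In hindlimb at 24 h its intensity ran from -123 to 22743 (median 3015), or 5.67 times the noise SD. Its median brightness rank was 151 in tail, 61 in hindlimb at 96 h and 26.5 in hindlimb at 24 h. The arrays of the 96 h set were also the noisiest, with a median noise SD of 457 in tail, 1310 in hindlimb at 96 h and 574 in hindlimb at 24 h. The number of all pairs above background moved less between these classes, with medians of 54.5, 39 and 46 per array.

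**Figure D1:**
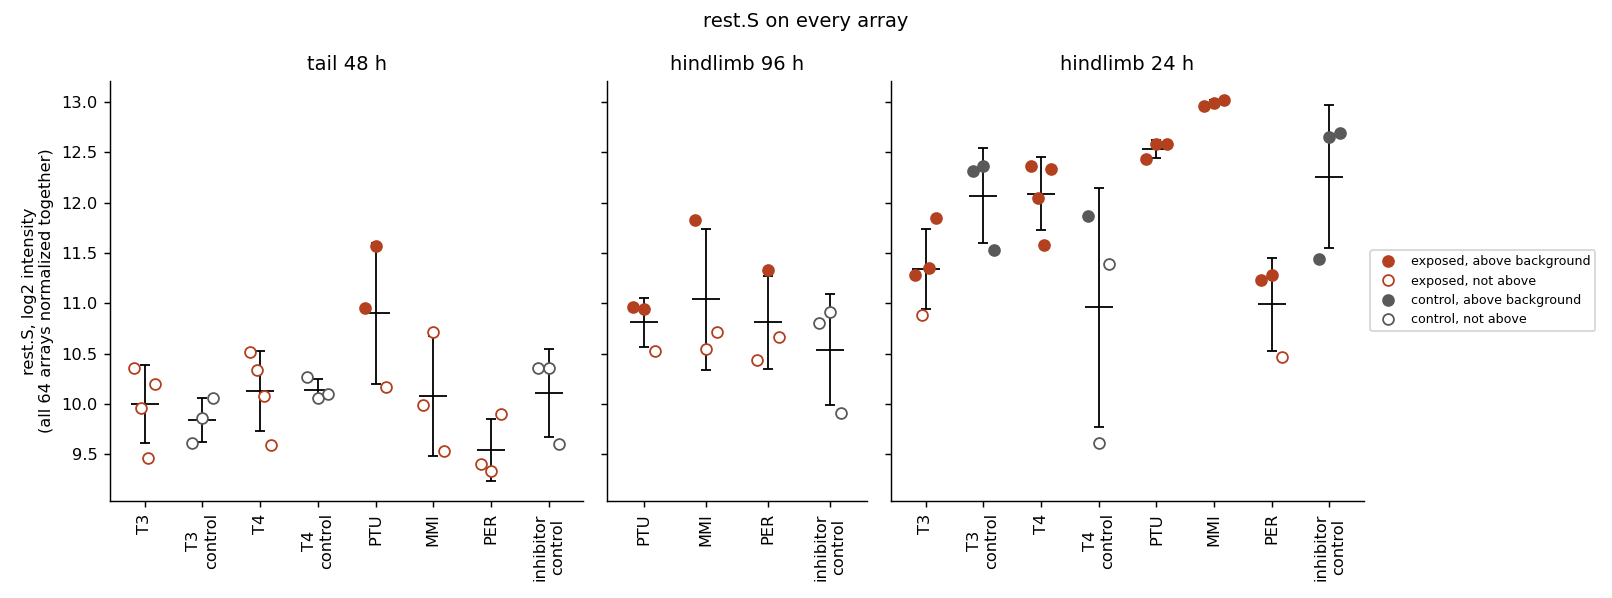
Normalized log2 intensity of rest.S on each of the 64 arrays (points), by group, with the group mean and SD (bars), for tail at 48 h, hindlimb at 96 h and hindlimb at 24 h. Filled points mark the 28 arrays on which rest.S was above background; 22 of them lie in hindlimb at 24 h, where the 3 MMI arrays are the highest.

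With T3 in hindlimb at 24 h, rest.S lay below its controls. Its intensity was 1147, 627, 1621 and 2850 on the 4 T3 arrays, against 3790, 2878 and 2870 on the 3 control arrays. Every T3 array was dimmer than every control array before normalization, and the T3 array at 627 was not above background. After normalization the T3 arrays averaged 11.46 ± 0.39 on the log2 scale (SD, n = 4) and the controls 12.23 ± 0.52 (SD, n = 3). The fitted log2 difference was -0.77 (SE 0.41, 95% interval -1.6 to 0.07), with 3 of 4 T3 arrays below every control and the fourth above control replicate 3. The size depended on which spot was read: the first spot alone gave -0.32 and the second alone gave -1.21. Spots were far apart on control replicate 3 (1280 and 4460) and, in the opposite order, on T3 replicates 1 (1583 and 712) and 4 (4288 and 1411). Over the 53 pairs tested in this comparison the median was -0.01.

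With T4, rest.S lay above its controls. Its intensity was 4560, 3002, 2667 and 3331 on the 4 T4 arrays, against 3028, -123 and 936 on the 3 control arrays. The T4 arrays were close together and all above background, while the controls ranged from below 0 to a value inside the T4 range, with 1 of 3 above background. The T4 arrays averaged 12.26 ± 0.37 (SD, n = 4) and the controls 11.08 ± 1.14 (SD, n = 3), a fitted log2 difference of 1.18 (SE 0.41, 95% interval 0.34 to 2.01). The SE and interval pool the spread of all hindlimb groups and do not reflect the wide spread of these controls alone. After normalization 3 of 4 T4 arrays were above every control and all 4 were above the control mean. Without control replicate 2, whose intensity of -123 put rest.S at rank 252 on that array, the difference was 0.54, and the second spot alone gave 0.70. The median over the 44 pairs tested was -0.16.

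The controls of the 2 hormone experiments had different means, with overlapping ranges. On all arrays normalized together, rest.S averaged 11.34 ± 0.40 with T3 and 12.09 ± 0.36 with T4 (SD, n = 4 each). It averaged 12.07 ± 0.47 in the T3 controls and 10.96 ± 1.19 in the T4 controls (SD, n = 3 each), of which the second mean includes T4 control replicate 2 at 9.61. The mean of the T4 arrays was thus within 0.02 of that of the T3 controls, and the T3 arrays averaged above the T4 controls. The opposite signs of the T3 and T4 differences stand against different control groups, and the difference between them was not tested.

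MMI gave the highest normalized rest.S values of the series. Its intensity was 11594, 22743 and 6313 on the 3 MMI arrays at 24 h, against 2056, 4905 and 16604 on the 3 inhibitor controls. The deposited values spread several-fold in both groups, but the rank of rest.S was nearly the same on all MMI arrays, at 18, 19 and 16, against 38, 21 and 21 in the controls. After normalization the MMI arrays averaged 13.27 ± 0.04 and the controls 12.45 ± 0.78 (SD, n = 3 each), and the groups did not overlap. The fitted log2 difference was 0.83 (SE 0.44, 95% interval -0.07 to 1.72). Control replicate 1, with spots at 3227 and 884, carried much of it: without that array the difference was 0.38. The median over the 40 pairs tested was -0.04.

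PER lay on the other side of the same controls. The intensity of rest.S was 2305, 3271 and 464 on the 3 PER arrays, of which the last was not above background, against 2056, 4905 and 16604 on the controls. The groups overlapped before normalization and no longer did after it, with ranks of 42, 38 and 77 with PER and 38, 21 and 21 in controls. The PER arrays averaged 11.12 ± 0.43 (SD, n = 3), and the fitted log2 difference was -1.33 (SE 0.44, 95% interval -2.22 to -0.44). The spots lay apart on all 3 PER arrays, at 1264 and 3346, 1989 and 4553, and 981 and -53.7. The first spot alone gave -1.37 and the second alone gave -1.29. The median over the 47 pairs tested was -0.11. MMI and PER both act against hormone synthesis, by different steps, and they shared these controls.

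PTU, which like MMI acts on the thyroid peroxidase, gave a difference that did not pass the test. The intensity of rest.S was 5160, 6922 and 5547 on the 3 PTU arrays, all at rank 22, against 2056, 4905 and 16604 on the controls. The PTU arrays were close together and lay inside the control range. They averaged 12.74 ± 0.10 (SD, n = 3), and the fitted log2 difference was 0.29 (SE 0.44, 95% interval -0.6 to 1.18, limma adjusted p = 0.965), with 3 of 3 PTU arrays above the control mean. In this comparison 0 of 43 tested pairs were called (0%), and 0 had an unadjusted p under 0.05. The sign turned to -0.16 without control replicate 1. These controls also entered the choice of the gene, through MMI and PER, so the test with PTU is not independent of it.

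**Figure D2:**
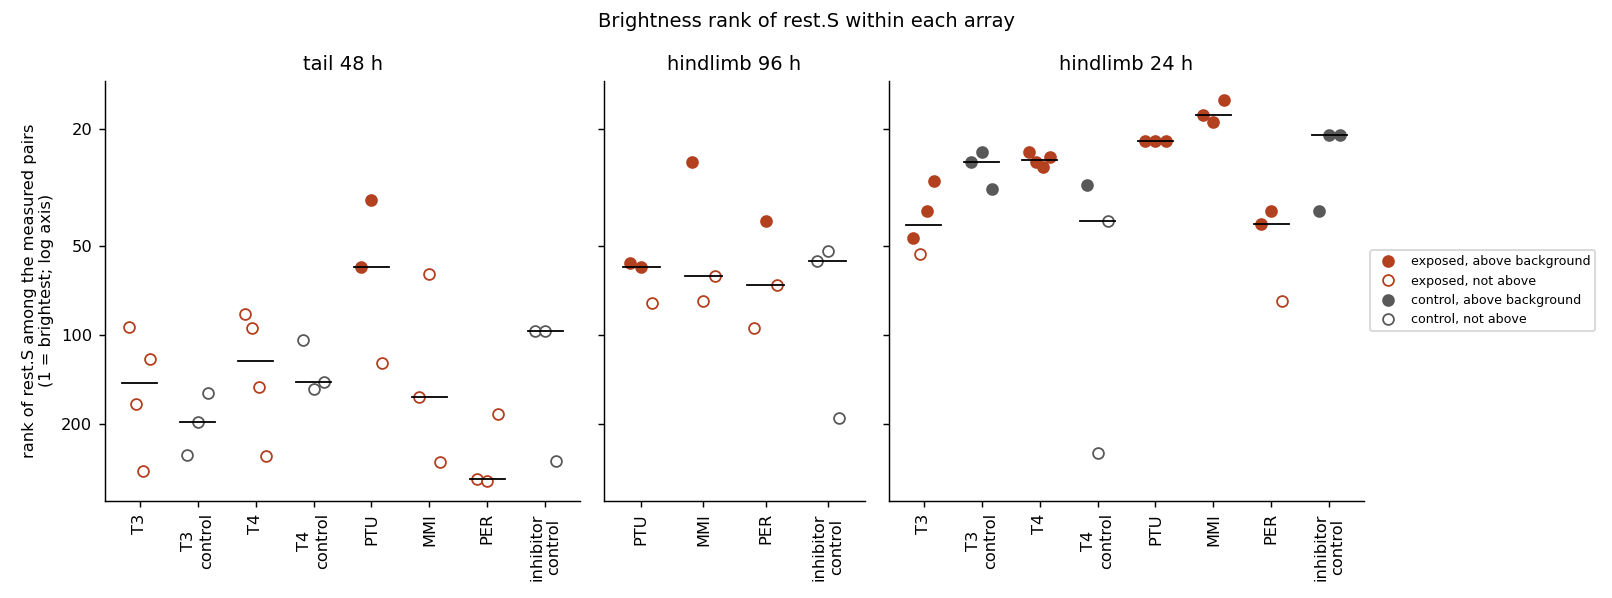
Brightness rank of rest.S among the measured pairs of its own array (points; 1 is the brightest, log axis), by group, with the group median (bars). In hindlimb at 24 h the 3 MMI arrays rank between 16 and 19 and the 3 PTU arrays at 22, while in tail at 48 h the ranks run from 35 to 314.

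Between 96 h and 24 h, hindlimb rest.S did not pass the test with PER, the only difference over time given here with a p. In controls it was not above background at 96 h, and the differences in controls, with PTU and with MMI are given with no p. Log2 values below are normalized within hindlimb, and an adjusted p is limma's with Benjamini-Hochberg adjustment over the pairs tested in that comparison. The 96 h and 24 h arrays are separate sets of arrays whose scaling is not given, so time and array set cannot be told apart. The sets also differed in a probe pattern: of the 3 pairs for gapdh.S, 2 were above background on 0 of 12 hindlimb arrays at 96 h and 26 of 26 at 24 h, while the third was above background on all of them.

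In controls, the intensity of rest.S was 1044, 1965 and 277 at 96 h, against 2056, 4905 and 16604 at 24 h. No 96 h control array was above background and all 24 h control arrays were, so the pair entered this comparison through its 24 h arrays alone and had to differ in that direction. Those arrays also entered the choice of the gene, and the values here are therefore a description. The 96 h controls averaged 10.7 ± 0.52 and the 24 h controls 12.45 ± 0.78 (SD, n = 3 each), without overlap. The fitted log2 difference was -1.75 (SE 0.44, 95% interval -2.64 to -0.85, 3 of 3 arrays at 96 h lower). Set against the dimmest signal above background at 96 h, the group means differed by at least 2.03-fold, a bound without sampling error. Of 40 pairs tested, 8 were called (20%), 2 higher and 6 lower at 96 h. The noise SD ran from 835 to 1930 on the 96 h controls and from 264 to 1340 on the 24 h controls, and its part in the difference was not tested.

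With PTU, the signal intensity was 1455, 1975 and 1006 at 96 h, against 5160, 6922 and 5547 at 24 h. The 2 brighter arrays at 96 h were above background, at 2.11 and 2.78 times the noise SD, and the third was not. All 3 arrays at 24 h were above background, which alone let the pair enter this comparison, and the values here are therefore a description. The PTU arrays averaged 10.96 ± 0.23 at 96 h and 12.74 ± 0.10 at 24 h (SD, n = 3 each), and the groups did not overlap. The fitted log2 difference was -1.78 (SE 0.44, 95% interval -2.67 to -0.89, 3 of 3 arrays at 96 h lower). Here 12 of 59 pairs were called (20.3%), 6 in each direction.

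With MMI, the intensity was 5685, 1284 and 1254 at 96 h, against 11594, 22743 and 6313 at 24 h. Only the first of the 96 h arrays was above background, and its spots read 2031 and 9338. The MMI arrays averaged 11.2 ± 0.69 at 96 h and 13.27 ± 0.04 at 24 h (SD, n = 3 each), without overlap. The fitted log2 difference was -2.08 (SE 0.44, 95% interval -2.97 to -1.19, 3 of 3 arrays at 96 h lower). Of 33 pairs tested, 10 were called (30.3%), 5 in each direction. All 3 arrays at 24 h were above background, which alone let the pair enter this comparison. Those arrays also entered the choice of the gene, and the values here are therefore a description. The PER arrays at 24 h entered that choice too, so the test with PER is not independent of it.

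With PER, the intensity was 444, 10031 and 1681 at 96 h, against 2305, 3271 and 464 at 24 h. The groups overlapped, with 1 of 3 arrays above background at 96 h and 2 of 3 at 24 h. They averaged 10.96 ± 0.43 at 96 h and 11.12 ± 0.43 at 24 h (SD, n = 3 each). The fitted log2 difference was -0.16 (SE 0.44, 95% interval -1.05 to 0.73, adjusted p = 0.787), where 9 of 43 pairs were called (20.9%), 5 higher and 4 lower at 96 h. Whether the time difference with PER differs from that in the other groups was not tested.

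The size of the differences over time depended on bringing the arrays to 1 scale. Without scaling between arrays, the log2 differences were -1.35 in controls, -1.42 with PTU and -1.71 with MMI. Leaving it out also moved all tested pairs: their median was 0.32, 0.65 and 0.72, against 0.08, 0.23 and 0.28 after normalization. Relative to the median of all pairs, rest.S read -1.67, -2.07 and -2.42 without scaling, and -1.82, -2.01 and -2.36 after normalization. With the second spot alone the PTU difference was -1.81.

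**Figure D3:**
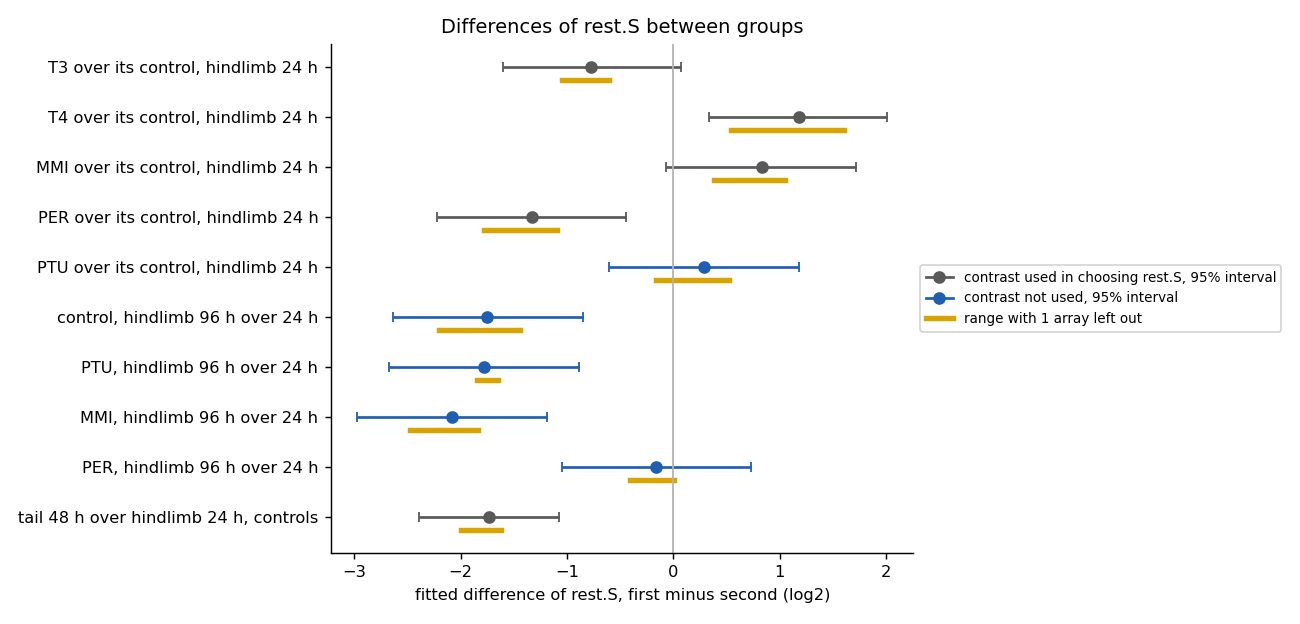
Fitted log2 differences of rest.S, first-named group minus second, with 95% intervals (points and lines) and the range when 1 array is left out (yellow bars). Grey marks contrasts used in choosing the gene, whose intervals take no account of that choice, and blue marks the others. Of the blue ones, the 96 h over 24 h differences in controls, with PTU and with MMI are also descriptions with no p. They lie between -2.08 and -1.75, and the difference with PER lies at -0.16.

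Among the exposed and control hindlimbs at 96 h, rest.S was above background on too few arrays for a test, since a pair needed 3 such arrays in the 2 groups compared. The groups averaged 10.96 ± 0.23 with PTU, 11.2 ± 0.69 with MMI, 10.96 ± 0.43 with PER and 10.7 ± 0.52 in controls (SD, n = 3 each). All 3 exposed means lay above the control mean, by less than the larger SD, and each exposed range overlapped that of the controls. The PER array at 10031 was the brightest of the 96 h set in intensity but stood at rank 41, whereas the MMI array at 5685 stood at rank 26.

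In tail at 48 h, rest.S was above background on PTU arrays only, 2 of 3, and in no comparison on the 3 arrays required for a test. The intensity with T3 was 514, 329, -511 and 411, against -179, 88.8 and 310 in its controls. With T4 it was 775, 431, 160 and -26.5, against 433, 165 and 237 in its controls. None of these 14 arrays was above background, and the normalized means were 9.73 ± 0.42 with T3 (SD, n = 4) against 9.57 ± 0.22 in its controls (SD, n = 3), and 9.88 ± 0.42 with T4 (SD, n = 4) against 9.89 ± 0.11 in its controls (SD, n = 3).

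The 2 tail arrays above background both carried PTU. There the intensity was 995, 1661 and 149 on the 3 PTU arrays, against 246, 324 and -53.3 on the inhibitor controls. The brightest of them, at 1661, came from 1 spot, since its spots read 108 and 3214. The intensity with MMI was 132, 835 and -113, and with PER it was -198, -191 and 1.45. The normalized means were 10.62 ± 0.65 with PTU, 9.82 ± 0.62 with MMI, 9.26 ± 0.32 with PER and 9.84 ± 0.46 in controls (SD, n = 3 each), and the range of each exposed group overlapped that of the controls.

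Side by side, the tail and the hindlimb at 24 h gave log2 differences from their own controls of 0.16 and -0.77 with T3, and of -0.01 and 1.18 with T4. With PTU they were 0.78 and 0.29, with MMI -0.03 and 0.83, and with PER -0.58 and -1.33. Since all but 2 tail arrays were below background, the tail values rest on the background and their signs carry no direction, and whether an effect differed between the tissues was not tested.

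Between the tissues in controls, rest.S was lower in tail. It was above background on 0 of 9 tail controls at 48 h and 7 of 9 hindlimb controls at 24 h, and the 18 arrays, normalized together, averaged 9.8 ± 0.29 in tail and 11.53 ± 0.96 in hindlimb (SD, n = 9 each). The fitted log2 difference, with the exposure set as a term, was -1.73 (SE 0.32, 95% interval -2.39 to -1.07). The pair entered this comparison through its hindlimb arrays alone and had to differ in that direction. The gene was also chosen by this difference, and the values are a description. Set against the dimmest signal above background in tail, the group means differed by at least 1.69-fold, a bound without sampling error. All 9 tail arrays were below the hindlimb mean, while the ranges overlapped through 1 hindlimb array, T4 control replicate 2. Tissue and time cannot be told apart here, because the tails were taken at 48 h and the hindlimbs at 24 h.

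In the exposed groups, rest.S was above background on 0 of 4 tail and 3 of 4 hindlimb arrays with T3, and on 0 of 4 and 4 of 4 with T4. With PTU it was above background on 2 of 3 tail and 3 of 3 hindlimb arrays, with MMI on 0 of 3 and 3 of 3, and with PER on 0 of 3 and 2 of 3. Only PTU was thus measured in both tissues, and there tail and hindlimb averaged 10.90 ± 0.70 and 12.53 ± 0.09 (SD, n = 3 each) on all arrays normalized together, a difference of -1.63 without overlap. These hindlimb arrays at 24 h, other than those with PTU, also entered the choice of the gene, and the exposed groups were not tested between tissues.

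Ordered by their mean over all arrays normalized together, the 20 groups ran from 12.99 ± 0.03 with MMI in hindlimb at 24 h to 9.54 ± 0.31 with PER in tail. The hindlimb groups at 24 h with PTU (12.53), the inhibitor controls (12.26), T4 (12.09), the T3 controls (12.07) and T3 (11.34) followed MMI. A middle stretch held MMI at 96 h (11.04), PER at 24 h (10.99), the T4 controls at 24 h (10.96), PTU in tail (10.90), PTU and PER at 96 h (10.81 each) and the 96 h controls (10.54). The other 7 tail groups closed the order, between 10.14 and 9.54. Of the 19 pairs of neighbours in this order, 18 overlapped in range and 17 had a gap smaller than the larger of their SDs. Only MMI and PTU in hindlimb at 24 h did not overlap, with a gap of 0.46, and the T3 controls stood above T3 by 0.73, more than either SD.

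The 2 spots of rest.S lay close together on some bright arrays and apart on others. Both were measured on 63 of the 64 arrays, and the second was blank on 1 PTU array at 96 h. Of the 28 arrays above background, 16 had spots within 2-fold of each other, and the log2 values of the spots correlated with r = 0.50 over these 28 arrays, which share probes and scaling. The 3 MMI and 3 PTU arrays at 24 h had nearly equal spots, such as 22655 and 22832 on MMI replicate 2, whereas bright arrays at 96 h did not, with 14118 and 5944 on PER replicate 2 and 2031 and 9338 on MMI replicate 1. Spots further apart were found on both sides of the comparisons, among them T4 replicate 3 (4431 and 904), T3 replicate 4 (4288 and 1411) and the T3 and inhibitor controls named above. The neighbouring pairs on the array, LOC397846 and mcm2.L, were above background on 0 hindlimb arrays.

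**Figure D4:**
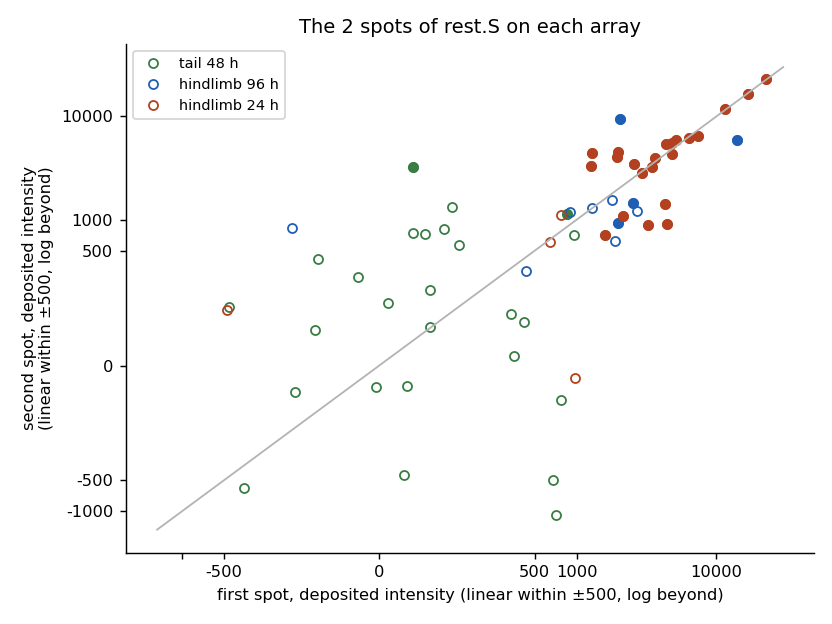
First against second spot of rest.S in deposited intensity, 1 point per array, for tail at 48 h, hindlimb at 96 h and hindlimb at 24 h; axes are linear around 0 and logarithmic beyond, filled points are above background and the line marks equality. The MMI and PTU arrays at 24 h, such as MMI replicate 2 with 22655 and 22832, lie near the line, PER replicate 2 (14118 and 5944) and MMI replicate 1 (2031 and 9338) at 96 h lie off it, and tail arrays scatter around 0.

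The pattern of rest.S over the 38 hindlimb arrays was most like that of mt4.L among 54 named pairs above background on at least 3 of them. The measure is Pearson's r of normalized log2 values, given as a description over arrays that share scaling and time. For mt4.L, which encodes a metallothionein, a small metal-binding protein, r was 0.68 over 36 arrays and 0.78 over the 12 group means. It was 0.57 over the arrays at 24 h and 0.27 once the group means were removed, so most of the likeness lay between groups. mt4.L averaged 14.98 ± 0.40 with MMI at 24 h (SD, n = 3), the highest group for rest.S as well. The groups did not run alike throughout, since mt4.L averaged 13.92 ± 1.15 with PER at 24 h and 13.92 ± 1.24 in the controls (SD, n = 3 each), where rest.S differed.

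At 96 h mt4.L was lower than at 24 h in all 4 groups, by at least 5.69-fold in controls and at least 11.1-fold with MMI. There it was above background on 0 of 3 arrays at 96 h and 3 of 3 at 24 h, so it entered both comparisons through its 24 h arrays alone and no p is given. With PTU its log2 difference was -2.51 (SE 0.80) and with PER it was -2.78 (SE 0.80). mt4.L was picked by its likeness to rest.S over these same arrays, so these values are also given with no p. With PER rest.S read -0.16, and the 2 genes were not tested against each other. With T4 at 24 h mt4.L read 2.67 over its controls (SE 0.80), also given with no p. It was above background on 3 of 3 measured T4 arrays and 1 of 3 controls, which averaged 11.33 ± 1.53 (SD, n = 3). The T4 arrays alone thus let it enter, and the control mean rests mostly on background.

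The next most alike was gapdh.S, which encodes a glycolytic enzyme, with r of 0.56 and 0.55 for 2 of its 3 pairs and -0.21 for the third. These pairs disagreed on time in the same way. The first 2 were lower at 96 h than at 24 h by at least 9.21-fold in each of the 4 groups, without a single 96 h array above background. The third read 0.05 in controls, -0.21 with PTU, 0.45 with MMI and -0.13 with PER on the log2 scale. At 24 h alone r was 0.003 and -0.20 for the first 2 pairs, so their likeness to rest.S lay in the split between the 2 sets of arrays. Probes of 1 gene thus parted between the 96 h and 24 h sets, and the part of this in the time differences of rest.S was not tested.

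The cyclin gene ccnd2.L, a driver of entry into the cell cycle, followed with r = 0.48, and thdl17.L with r = 0.36. At 24 h alone r was 0.48 for ccnd2.L and 0.13 for thdl17.L. The latter was above background on 17 of 38 hindlimb arrays, with 1 of them at 96 h. The least alike were desmin (des.1.S), with r = -0.43, and calb1.L, which encodes the calcium-binding protein calbindin, with r = -0.40. Desmin was above background on 6 of 38 hindlimb arrays, so its r rests mostly on background values, whereas calb1.L was above background on all 38. Once the group means were removed, r was -0.08 for des.1.S and -0.36 for calb1.L. Both genes lost their sign without scaling between arrays.

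**Figure D5:**
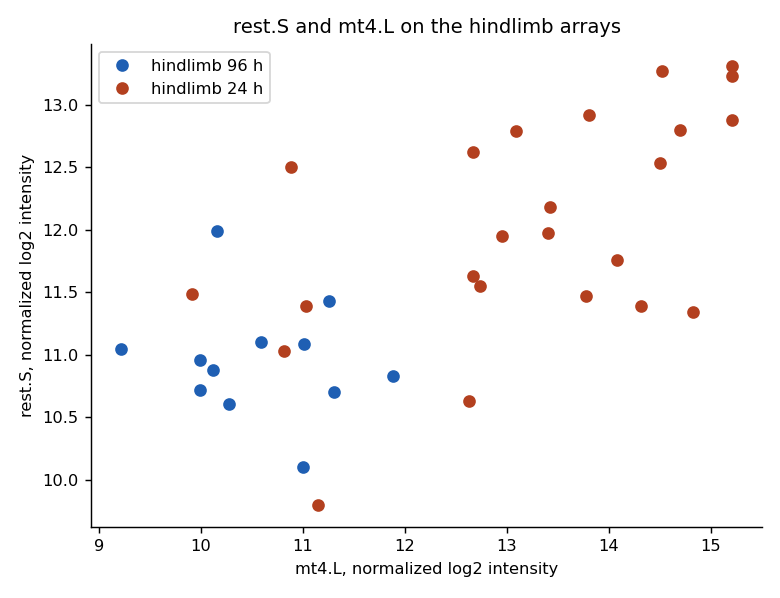
Normalized log2 intensity of rest.S (vertical) against mt4.L (horizontal) on the 36 hindlimb arrays where both were measured, at 96 h and at 24 h. The 96 h arrays gather at the low end of mt4.L and the MMI arrays at 24 h lie at the upper right, with r = 0.68 over all of them.

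The array gave little on the partners and targets of REST. Of 23 genes for its corepressor complexes, 1 was on the array, sin3a.S, which encodes the scaffold of the SIN3 complex, and it was above background on 0 of 64 arrays. Of 55 genes that REST is known to repress in mammals or that mark neurons, 7 were on the array. The neurofilament-like gene ina.S was above background on 2 of 12 hindlimb arrays at 96 h and 2 of 26 at 24 h, and gap43.S, a gene of growing axons, on 0 arrays. The transcription factor gene neurod1.L and the prohormone convertase gene pcsk2.L were each above background on 1 hindlimb array, and mbp.S, named above, on 0.

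The other 2 neuronal genes, nkx2-2.S and calb1.L, could be tested beside rest.S. nkx2-2.S, a homeodomain regulator of the ventral neural tube, read lower at 96 h than at 24 h in controls (log2 difference -1.49, SE 0.41). Its 96 h controls were widely spread, at 12.17 ± 1.49 with 2 of 3 arrays above background. The 24 h controls averaged 13.66 ± 0.1 with 3 of 3 above background (SD, n = 3 each). These 24 h arrays alone let nkx2-2.S enter this comparison, so the difference is a description with no p. The nkx2-2.S differences of 96 h from 24 h were -0.42 with PTU, 0.16 with MMI and -0.98 with PER (adjusted p = 0.0647). calb1.L passed in 0 of the 4 comparisons over time, where its differences ran from -0.24 in controls to 0.94 with PER (adjusted p = 0.0501).

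In hindlimb at 24 h neither gene passed against controls. With T3, T4, PTU, MMI and PER, 0 of 53, 0 of 44, 0 of 43, 0 of 40 and 0 of 47 tested pairs were called by limma (0% each), and 0, 6, 0, 1 and 3 of them had an unadjusted p under 0.05. calb1.L read 0.17 with T3, -0.59 with T4, -0.21 with PTU, -0.71 with MMI and -0.57 with PER, and nkx2-2.S stayed between -0.27 and 0.18. In the tissue comparison, by which rest.S was chosen, 31 of 70 tested pairs were called (44.3%). There calb1.L was higher in tail by a log2 difference of 0.78 (SE 0.20, adjusted p = 0.00315), and nkx2-2.S read -0.31 (SE 0.19, adjusted p = 0.196). The 2 genes allow no statement on the list.

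Of 27 thyroid hormone genes, among them receptors, coregulators and response genes, 8 were on the array and few were bright in hindlimb. The coactivator gene ncoa2.S was the only one tested in the comparisons of 96 h with 24 h, other than that with MMI, and in that of PTU at 24 h. It passed in 0 of the 4 it entered, with -1.16 in controls, -1.34 with PTU and -0.13 with PER at 96 h, and 0.21 with PTU at 24 h. Against controls at 24 h it read -0.72 with MMI and -0.78 with PER, and was not called. At 24 h thdl17.L was also tested and not called, with 0.58 with T3 (SE 0.73), 0.03 with T4 (SE 0.61) and 0.91 with MMI (SE 0.65). The hormone-response genes thibz.L and fap.L were above background on 0 arrays. In the tissue comparison thdl17.L was higher in tail, by a log2 difference of 2.34 (SE 0.35, adjusted p = 2.39e-05), and ncoa2.S read 0.04. For thdl18.S the log2 difference was 1.87 (SE 0.48). Over all groups thdl18.S was above background on 25 tail arrays and 4 hindlimb arrays at 24 h. It thus entered largely through tail, the tissue where it is high, and no p is given for it.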

How the data were processed

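Per the labels' protocols, amplified RNA of single animals was labelled with P32 and hybridised to a cDNA array of 812 spots. The deposited intensity values are linear and background-subtracted; the scanner, the background method, the scaling and the rule for blank spots are not given in these sources. The rest.S pair was matched by the platform's symbol, updated through its gene identifier by the Xenopus_laevis_v10.1 annotation, used for names only. Noise SD was 1.4826 times the median size of an array's negative values. Intensities were passed through normexp (offset 50), log2-transformed, quantile normalized within each tissue and averaged per pair, with limma 3.58.1 in R 4.3.3 (statmod 1.5.0). A test required the pair to be above background on at least 3 arrays of both groups combined. lmFit and eBayes were run on all arrays of the tissue at once, with Benjamini-Hochberg adjustment within each comparison at 0.05, and the procedure was tested on simulated data. Within a tissue, each SE thus pools the spread over all groups fitted and not only those compared. The tissue comparison used 18 controls normalized together, and the order of groups used all 64 arrays normalized together. A lower bound on a fold sets the bright group against the lowest above-background signal of each dim array, or against the pair's own value where that is higher. It is taken from group means and carries no sampling error. Alternatives covered the scaling, a floor, the arrays fitted, array weights, each spot alone, the filter, the replicate number as a block and each array left out. The gene, the lists and the tests were chosen with earlier results of these data known. The number of arrays limits the precision.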

Additional observations from a re-analysis of the deposited data

How the results depend on the processing

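The differences by which the gene was chosen kept their sign under every alternative run. They ran from -1.21 to -0.32 for T3, 0.54 to 1.65 for T4, 0.38 to 1.05 for MMI, -1.78 to -0.99 for PER and -2.01 to -1.21 between tissues. The alternatives reuse the arrays of that choice, so a kept sign is no independent support. With 1 array left out, T4 ran from 0.54 to 1.61, PTU at 24 h from -0.16 to 0.52 and PER at 96 h over 24 h from -0.41 to 0.01; the cause was not tested. For time, the PTU difference, given with no p, was -1.42 without scaling between arrays and -1.81 on the second spot alone. The control difference, also given with no p, was -1.35 without scaling and -1.61 with only the groups compared. The MMI difference, also given with no p, was -1.71 without scaling. Without scaling, PER at 96 h over 24 h read 0.57, and r was 0.0742 for des.1.S and 0.089 for calb1.L. Without 1 array the PTU difference over time ran from -1.85 to -1.65. With every pair admitted, the 8 untested comparisons gave -0.58 to 0.78 (adjusted p 0.827 to 0.998, 0 pairs called).

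Animals with the same replicate number did not deviate together: 8 of 27 such pairs correlated above 0.1, and no comparison had every pair above it. The replicate block gave -0.89 for T3, 1.05 for T4 and -1.75, -1.78 and -2.08 for time in controls, with PTU and with MMI. All of these are descriptions with no p. PTU at 24 h and PER over time, which carry a p, stayed uncalled with the block (limma adjusted p = 0.967 and 0.794).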
